A study of Mus musculus with 19 samples.

Results

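Adam11, Spsb4, Tpm2, Inmt, Rab20, 9130409I23Rik and 1700080G11Rik are 7 of the 49315 genes in the liver count tables. They were chosen on measured values, namely higher expression in mice fed high dietary cholesterol than in mice fed low dietary cholesterol, together with the fact that none of them is a known gene of a sterol pathway. Every difference between the diets in these genes is therefore a description, in which intervals and counts of genes past a threshold are given for size and nothing is drawn from them, whereas the comparison of genotypes did not enter the choice. No numerical threshold was part of the choice, and all 7 genes passed the filter on low counts that left 15016 genes for testing.

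The libraries came from female Gramd1c-/- and Gramd1c+/+ littermates bred from heterozygous parents on a C57Bl6/N background, from a strain whose name also lists an agouti allele (Atm1Brd). The Gramd1c-/- mice carried the targeted tm1a allele in every tissue and not in hepatocytes alone. At 8 weeks of age the mice were moved from chow to synthetic diets with high (0.2%, wt/wt) or low (0.02%, wt/wt) cholesterol for 4 weeks. There were 5 Gramd1c-/- and 5 Gramd1c+/+ mice on high cholesterol, against 4 Gramd1c-/- and 5 Gramd1c+/+ mice on low cholesterol, with 1 library of polyadenylated RNA per mouse. The sample records name both gonadal adipose tissue and liver. Albumin transcripts made up 5.25% to 7.93% of counts on high and 6.92% to 9.17% on low cholesterol, and of 5 hepatocyte markers edgeR called 0 and DESeq2 called 2 between the diets, Alb (log2 fold change -0.39) and Fgb (-0.37), with 2 at an unadjusted p below 0.05. The part of this in the 7 genes was not tested. Adipocyte markers summed to 2.16 to 8.19 TPM (transcript abundance, in which counts are divided by gene length and scaled to the same total in each mouse) in 18 mice and to 138.2 TPM in 1.

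The liver senses cholesterol through opposed transcription factors. SREBP2 drives genes of cholesterol synthesis and uptake when sterols are scarce, and LXR drives genes of cholesterol export and fatty acid synthesis when oxysterols accumulate. The genes described here are not known members of either program and belong to unrelated families: a cell surface protein of the ADAM family, an adaptor of a ubiquitin ligase, an actin-binding tropomyosin, a methyltransferase, a small GTPase, an uncharacterised protein-coding gene and a long noncoding RNA.

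Each library held 27149972 to 34669648 counts. Gramd1c, the targeted gene, lay at 1.07 to 3.61 TPM in Gramd1c-/- livers and 9.56 to 16.0 TPM in Gramd1c+/+ livers, and Sqle, a cholesterol synthesis gene, lay at 1.38 to 2.58 TPM on high cholesterol and 25.5 to 57.5 TPM on low cholesterol, so neither label was contradicted in any mouse. There were 3 libraries that stood apart and were left out together as alternatives. Gramd1c-/- high cholesterol replicate 5 lay at 62.2 on the first principal component, against -27.5 to 31.2 for the other mice. Gramd1c+/+ low cholesterol replicate 2, the library with the adipocyte markers, held 574.6 TPM of adrenal cortex markers (at most 3.79 TPM elsewhere), and Gramd1c-/- high cholesterol replicate 3 held 167.3 TPM of smooth muscle markers (15.9 to 37.4 TPM elsewhere), 276.9 TPM of bile duct markers (46.2 to 89.9 TPM elsewhere) and 59.0 TPM of pancreas markers (at most 2.22 TPM elsewhere). A further library, Gramd1c-/- high cholesterol replicate 4, held 1225 TPM of Kupffer cell and macrophage markers (269.7 to 673.4 TPM elsewhere), and its 17.0 TPM of Rab20 lay within the range of its group. In bulk liver, a change in the number of cells of a type and a change in RNA per cell cannot be told apart.

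All 7 genes were called higher on high cholesterol with the genotypes averaged, where 0.446% of tested genes were called higher. Called here means a Benjamini-Hochberg adjusted p below 0.05 in edgeR over all tested genes. For the same contrast, 2748 of all 15016 tested genes had an unadjusted p below 0.05 in edgeR, DESeq2 called 598 in either direction, and 53% had positive edgeR estimates. Those are the backgrounds for every such count given for listed genes and neighbours. The median log2 fold change of the 7 was 1.31, against 0.0169 over all tested genes. In Gramd1c-/- mice 4 were called, Adam11, Tpm2, Inmt and 1700080G11Rik (background 0.0333%), and in Gramd1c+/+ mice all 7 (background 0.0999%). Gramd1c-/- high cholesterol replicate 5 and Gramd1c+/+ low cholesterol replicate 2 were the first pair of libraries that stood apart. Without them the 7 diet effects ranged from 0.49 to 2.76 on the log2 scale, and without all 3 libraries from 0.54 to 2.70. All 7 were called in both fits, which called 78 of 14859 and 56 of 15020 tested genes higher. In Gramd1c-/- mice alone the count was 1 without low cholesterol replicate 2 and 2 without low cholesterol replicate 3, in fits that called 1 and 4 of all genes higher (5 with all mice). In Gramd1c+/+ mice it was 4 without the first pair and 2 to 4 when any 1 of 8 mice was left out (high cholesterol replicates 1 to 4 and low cholesterol replicates 1 to 4), in fits that called 25 and 2 to 8 of all genes higher (15 with all mice). These counts repeat the choice of the genes and are given for size only.

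The ranges of single mice separate the genes further. In Adam11, Tpm2, Rab20 and 1700080G11Rik every mouse on high cholesterol, of either genotype, lay above every mouse on low cholesterol, which held for 9 of the tested genes (0.0599%). Within Gramd1c-/- mice the diets did not overlap in 6 genes, all but 9130409I23Rik (background 2.68%). Within Gramd1c+/+ mice they did not overlap in any of the 7 (background 0.693%).

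**Figure D1:**
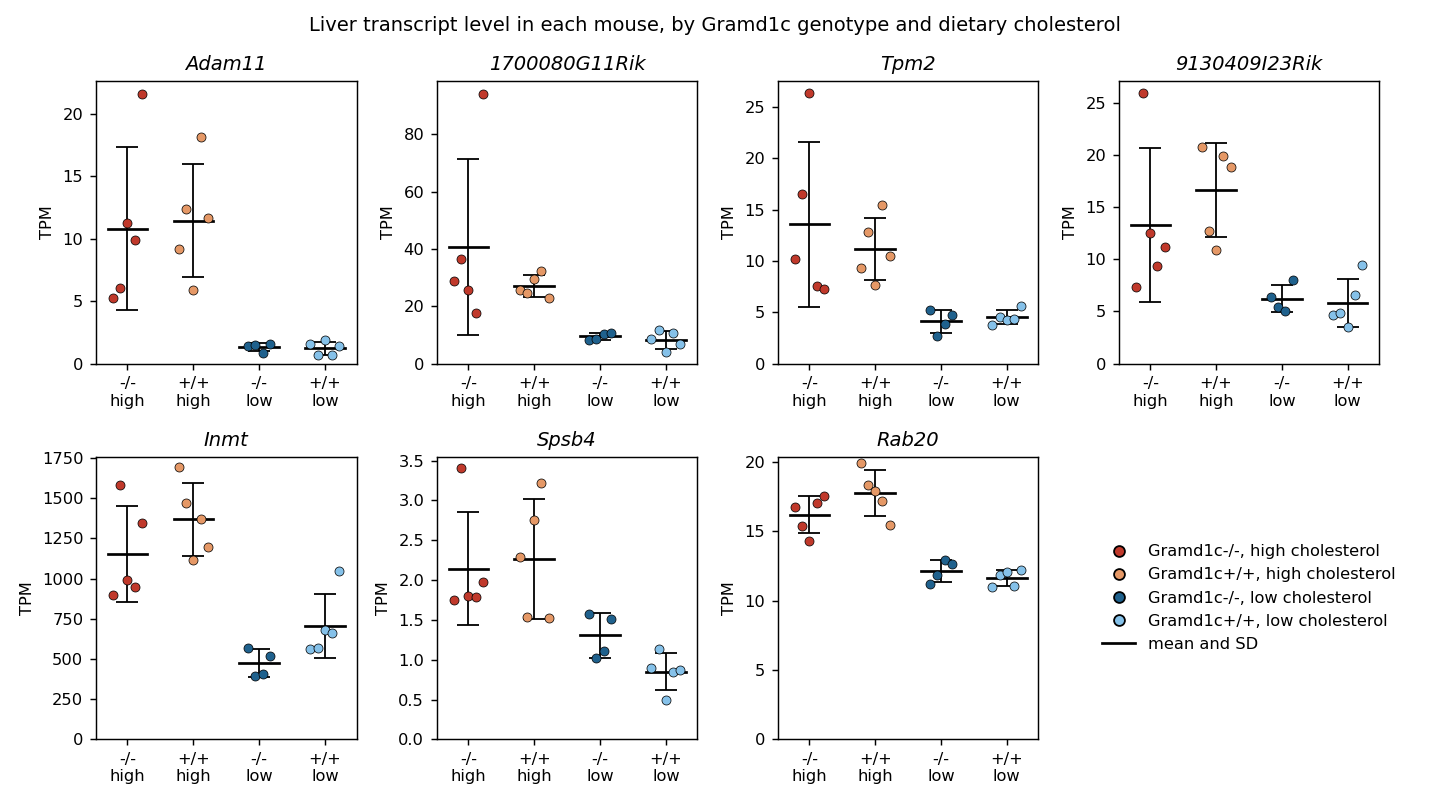
Level of each gene in each mouse (TPM, linear axes from 0), with Gramd1c-/- and Gramd1c+/+ mice on high cholesterol left of the same genotypes on low cholesterol. Points are mice, lines and bars are the mean and SD. All high cholesterol mice lie above all low cholesterol mice for Adam11, 1700080G11Rik, Tpm2 and Rab20, and Adam11 lies at 5.25 to 21.6 TPM on high and 0.703 to 1.87 TPM on low cholesterol.

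Adam11 had the most positive log2 fold change of all 15016 tested genes between high and low cholesterol. It encodes a member of the ADAM family that lacks a working protease site and is best known from neurons, where its close relatives bind LGI proteins. The gene lies on chromosome 11 (GRCm38 chr11:102761439-102780262, plus strand). Its level was 5.25, 6.04, 11.3, 9.93 and 21.6 TPM in Gramd1c-/- mice on high cholesterol and 9.15, 12.4, 5.89, 18.1 and 11.7 TPM in Gramd1c+/+ mice on high cholesterol. On low cholesterol it was 1.40, 1.54, 0.828 and 1.56 TPM in Gramd1c-/- mice and 1.56, 0.703, 1.87, 0.736 and 1.39 TPM in Gramd1c+/+ mice. The lowest mouse on high cholesterol was 2.8 times the highest on low cholesterol, and within the high cholesterol mice the level still varied over a wide range, with a coefficient of variation of 60.4% in Gramd1c-/- and 39.5% in Gramd1c+/+ mice. The diet effect averaged over genotypes was 8.53-fold (95% interval 5.62 to 13.0), with 3.01 ± 0.42 on the log2 scale in Gramd1c-/- mice and 3.17 ± 0.39 in Gramd1c+/+ mice (fit ± SE). Without the first pair of libraries that stood apart the averaged log2 fold change of Adam11 was 2.76.

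Of 10 tested ADAM genes, 0 were called in either direction by edgeR or DESeq2 and 2 had an unadjusted p below 0.05, and their median log2 fold change was -0.08. The ADAM sheddases Adam10 and Adam17, which cut membrane proteins from the cell surface, gave -0.19 and -0.17, while Adam33 gave 1.20 at a level of only 0.228 TPM on high and 0.0974 TPM on low cholesterol (adjusted p = 0.226, edgeR). Adam22 and Adam23, the noncatalytic relatives closest in kind, gave 0.29 and -0.21. Adam22 lay at only 0.048 TPM on high and 0.038 TPM on low cholesterol, with at most 28 reads in a mouse and an SE of 0.43. Of 4 LGI genes, 1 was tested, Lgi2, at 0.216 TPM on high and 0.195 TPM on low cholesterol.

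Spsb4 had the lowest level of the 7 in TPM. It encodes a SPRY domain and SOCS box protein, which holds substrates for a ubiquitin ligase built on elongins and a cullin. The gene lies on chromosome 9 (GRCm38 chr9:96943482-97018843, minus strand). Levels were 1.75, 3.40, 1.80, 1.78 and 1.98 TPM in Gramd1c-/- mice and 2.29, 1.54, 2.76, 3.22 and 1.52 TPM in Gramd1c+/+ mice on high cholesterol. On low cholesterol they were 1.58, 1.02, 1.12 and 1.52 TPM in Gramd1c-/- mice and 0.901, 1.14, 0.497, 0.852 and 0.870 TPM in Gramd1c+/+ mice. The diets overlapped only between genotypes, since the lowest Gramd1c+/+ mouse on high cholesterol (1.52 TPM) fell below the highest Gramd1c-/- mouse on low cholesterol (1.58 TPM). Spsb4 differed by 0.70 ± 0.28 in Gramd1c-/- mice and 1.47 ± 0.26 in Gramd1c+/+ mice on the log2 scale, and 2.13-fold on average (95% interval 1.61 to 2.80). Between 30 and 217 reads per mouse stood behind these values.

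Of 9 tested relatives and ligase partners of Spsb4, 0 were called higher and 1 lower, with a median log2 fold change of 0.05, and 2 had an unadjusted p below 0.05. The lower one was Spsb3, another SPRY domain and SOCS box gene, at 2.90 TPM on high cholesterol and 4.58 TPM on low cholesterol (log2 fold change -0.66, adjusted p = 0.0483, edgeR). Spsb1 and Spsb2 gave -0.15 and 0.05. The ligase subunits Elob, Eloc, Cul5 and Rnf7 gave 0.30, 0.12, -0.17 and 0.11.

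Tpm2 encodes beta-tropomyosin, which winds along actin filaments and is abundant in muscle. It lies on chromosome 4 (GRCm38 chr4:43514711-43523765, minus strand). The level was 10.2, 16.5, 26.3, 7.52 and 7.23 TPM in Gramd1c-/- mice and 9.36, 12.8, 7.68, 15.5 and 10.4 TPM in Gramd1c+/+ mice on high cholesterol, against 5.18, 2.67, 3.87 and 4.71 TPM in Gramd1c-/- mice and 3.81, 4.52, 4.26, 4.30 and 5.64 TPM in Gramd1c+/+ mice on low cholesterol. No mouse on low cholesterol reached the lowest on high cholesterol. The averaged difference was 2.82-fold (95% interval 2.11 to 3.76), with log2 fold changes of 1.65 ± 0.30 in Gramd1c-/- mice and 1.33 ± 0.27 in Gramd1c+/+ mice.

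The highest Tpm2 value, 26.3 TPM, came from the Gramd1c-/- library on high cholesterol that held the smooth muscle transcripts. Without that library the averaged log2 fold change of Tpm2 was 1.35 and that in Gramd1c-/- mice 1.38. Of 9 smooth muscle markers, 0 were called by edgeR and 9 had positive estimates averaged over genotypes. These ran from 0.11 for Smtn to 1.76 for Actg2, an actin of gut smooth muscle (adjusted p = 0.188, edgeR). The median estimate was 1.37 in Gramd1c-/- mice, the genotype of that library, and 0.157 in Gramd1c+/+ mice, where Tagln (-0.09) and Myl9 (-0.05) were negative. All 9 passed the filter on low counts, 5 had an unadjusted p below 0.05, and DESeq2 called 0. Their summed level was 17.5 to 167.3 TPM in Gramd1c-/- and 15.9 to 37.4 TPM in Gramd1c+/+ mice on high cholesterol, against 17.6 to 20.7 TPM in Gramd1c-/- and 19.96 to 34.7 TPM in Gramd1c+/+ mice on low cholesterol. The mouse with the highest marker sum, 167.3 TPM, also had the most Tpm2. The Gramd1c+/+ mouse on high cholesterol with the lowest marker sum of all, 15.9 TPM, had 15.5 TPM of Tpm2. Gramd1c+/+ low cholesterol replicate 2, the library with adrenal cortex and adipocyte markers, had 34.7 TPM of smooth muscle markers and 4.52 TPM of Tpm2. Of 8 striated muscle markers 1 was high enough to test, and their sum stayed at or below 5.21 TPM in every mouse. Of 7 tested bile duct markers, highest in the library with the smooth muscle transcripts, 0 were called by edgeR or DESeq2. An unadjusted p below 0.05 was found in 5 (edgeR), and 6 had positive estimates, with a median of 0.85. That median was 1.24 in Gramd1c-/- and 0.0453 in Gramd1c+/+ mice. The part of these cell types in the Tpm2 difference was not tested. The other tropomyosins Tpm1, Tpm3 and Tpm4 gave log2 fold changes of 0.07, -0.23 and -0.05, with 0 of 3 called by edgeR or DESeq2 and 1 at an unadjusted p below 0.05.

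**Figure D2:**
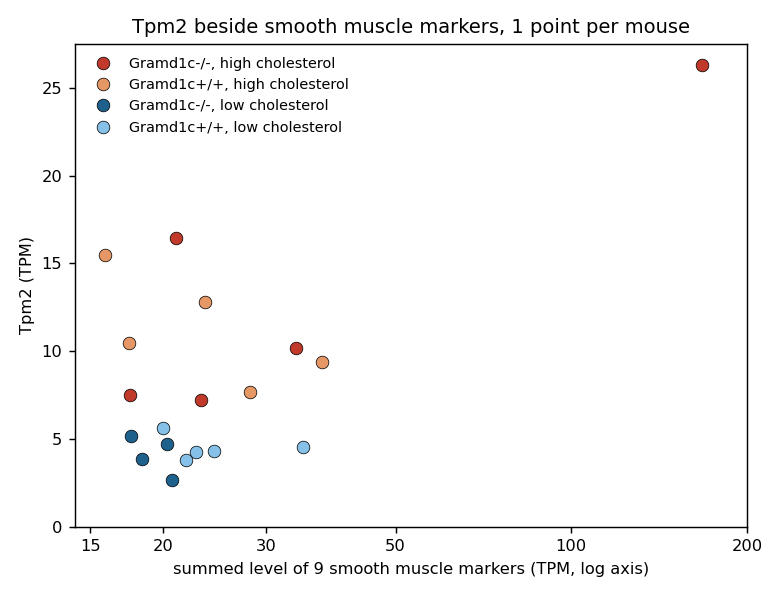
Tpm2 level (TPM, linear axis from 0) against the summed level of 9 smooth muscle markers (TPM, log axis), with 1 point per mouse and colours for the 4 groups. One Gramd1c-/- mouse on high cholesterol stands at 167.3 TPM of markers and 26.3 TPM of Tpm2, and the other mice lie at marker sums of 15.9 to 37.4 TPM on high and 17.6 to 34.7 TPM on low cholesterol.

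The promoter window of Tpm2 in RefSeq (GRCm38.p6 chr4:43523505-43523804, minus strand, 250 bases before and 50 after the start) is shown because it is the densest in one motif. Its start lies 211 bases from the one in the count tables. Capitals mark the GC box GGGCGG on either strand, found 3 times there. At 70.3% G and C it compares with a median of 52.7% over 32851 promoter windows, of which 35.7% hold a GC box.
Tpm2: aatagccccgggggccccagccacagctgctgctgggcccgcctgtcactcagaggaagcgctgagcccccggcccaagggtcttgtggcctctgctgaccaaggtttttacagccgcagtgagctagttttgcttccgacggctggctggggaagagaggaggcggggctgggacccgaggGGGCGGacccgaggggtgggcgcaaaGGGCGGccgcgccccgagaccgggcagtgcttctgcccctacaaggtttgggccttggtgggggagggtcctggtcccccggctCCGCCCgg

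Inmt was the most abundant of the 7 genes in TPM. It encodes indolethylamine N-methyltransferase, which moves a methyl group from S-adenosylmethionine to tryptamine and related amines. It lies on chromosome 6 (GRCm38 chr6:55170626-55175043, minus strand). The level was 896, 1585, 992, 949 and 1343 TPM in Gramd1c-/- mice and 1693, 1468, 1119, 1374 and 1196 TPM in Gramd1c+/+ mice on high cholesterol. On low cholesterol it was 571.5, 394, 409.5 and 522 TPM in Gramd1c-/- mice and 562, 568.1, 678, 665 and 1049 TPM in Gramd1c+/+ mice. The Gramd1c+/+ mouse with 1049 TPM alone kept the diets from separating, since it exceeded 3 of the Gramd1c-/- mice on high cholesterol. The difference was 2.20-fold (95% interval 1.74 to 2.78), with log2 fold changes of 1.28 ± 0.24 in Gramd1c-/- mice and 0.999 ± 0.221 in Gramd1c+/+ mice, and in counts it meant 19707 to 36055 reads per mouse on high cholesterol and 7461 to 24541 on low cholesterol.

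Of 12 tested genes for other methyltransferases and methyl donor enzymes, 0 were called by edgeR, 1 by DESeq2 (Hnmt) and 2 had an unadjusted p below 0.05, and the median log2 fold change was -0.03. Hnmt, which methylates histamine, had the largest estimate at 0.45, with 27.4 TPM on high and 19.9 TPM on low cholesterol (adjusted p = 0.106, edgeR). Nnmt, which methylates nicotinamide and is closest in kind to Inmt, gave 0.32, and Mat1a and Ahcy, which make S-adenosylmethionine and clear what is left of it, gave -0.13 and -0.07. Of 9 tested genes of tryptophan and indoleamine metabolism 0 were called by edgeR or DESeq2 and 2 had an unadjusted p below 0.05, and Ddc, the decarboxylase that makes tryptamine, gave 0.26 (adjusted p = 0.188).

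The RefSeq promoter window of Inmt (GRCm38.p6 chr6:55174941-55175240, minus strand) is shown as the only one of the 6 found that holds the TATA box TATAAA. Capitals mark 2 copies, 80 and 69 bases before the RefSeq start, which lies 53 bases from that in the count tables. A TATAAA on either strand stood in 13.6% of all windows. The window holds 0 CpG, against a median of 7.
Inmt: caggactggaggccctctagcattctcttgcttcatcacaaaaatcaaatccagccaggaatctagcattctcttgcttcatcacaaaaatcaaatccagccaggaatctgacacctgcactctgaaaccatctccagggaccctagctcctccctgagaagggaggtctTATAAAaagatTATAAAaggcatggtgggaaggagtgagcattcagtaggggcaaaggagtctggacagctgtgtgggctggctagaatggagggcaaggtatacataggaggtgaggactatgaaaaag

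Rab20 had the smallest change and the tightest groups. It encodes a small GTPase of endosomes and phagosomes that is also known as a hypoxia-induced gene. It lies on chromosome 8 (GRCm38 chr8:11453518-11478710, minus strand). Levels were 16.8, 15.4, 14.3, 17.0 and 17.6 TPM in Gramd1c-/- mice and 19.9, 18.4, 17.9, 17.2 and 15.4 TPM in Gramd1c+/+ mice on high cholesterol, against 11.2, 11.8, 12.9 and 12.6 TPM in Gramd1c-/- mice and 11.02, 11.8, 12.0, 11.1 and 12.2 TPM in Gramd1c+/+ mice on low cholesterol. The coefficient of variation within groups was 4.70% to 9.27%, so the diets stayed apart although they differed by only 1.45-fold (95% interval 1.25 to 1.67). The log2 fold change was 0.41 ± 0.15 in Gramd1c-/- mice and 0.67 ± 0.14 in Gramd1c+/+ mice.

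Of 19 other tested Rab GTPases of endosomes and phagosomes, 0 were called by edgeR or DESeq2, 2 had an unadjusted p below 0.05, 3 had positive estimates, and the median log2 fold change was -0.09. The estimates lay between -0.42 for Rab43 and 0.26 for Rab24, and Rab5b, an early endosome Rab, gave -0.33 (adjusted p = 0.171). Of 13 tested hypoxia-inducible genes 0 were called by edgeR, 1 by DESeq2 (Ndrg1) and 3 had an unadjusted p below 0.05, with a median of -0.06. Ndrg1 gave -0.71 (adjusted p = 0.0633) and Vegfa 0.44 (adjusted p = 0.259). On the opposite strand Rab20 overlaps E230013L22Rik, which had at most 35 reads in a mouse and a log2 fold change of 0.85 (adjusted p = 0.150, edgeR). The library kit as named in the records does not mark strand, so reads of overlapping genes cannot be told apart.

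The Rab20 promoter window in RefSeq (GRCm38.p6 chr8:11478591-11478890, minus strand, start 70 bases from that in the count tables) is shown because it holds an E-box. Capitals mark a GC box (GGGCGG) 100 bases and an E-box (CACGTG) 46 bases before the start. CACGTG stood in 7.15% of all windows.
Rab20: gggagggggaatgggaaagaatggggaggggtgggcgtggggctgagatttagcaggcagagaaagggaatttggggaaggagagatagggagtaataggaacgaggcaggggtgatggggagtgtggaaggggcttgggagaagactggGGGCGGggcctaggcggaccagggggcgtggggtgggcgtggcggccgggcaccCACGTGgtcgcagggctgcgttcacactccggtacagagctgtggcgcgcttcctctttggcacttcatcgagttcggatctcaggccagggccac

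9130409I23Rik is annotated as protein coding, on chromosome 1 (GRCm38 chr1:181051237-181060667, plus strand), next to the gene of the epoxide hydrolase Ephx1. Levels on high cholesterol were 7.32, 25.9, 12.5, 9.40 and 11.2 TPM in Gramd1c-/- mice and 20.8, 12.7, 10.9, 19.9 and 18.8 TPM in Gramd1c+/+ mice. On low cholesterol they were 6.42, 5.48, 5.03 and 7.99 TPM in Gramd1c-/- mice and 4.65, 4.82, 3.48, 6.60 and 9.48 TPM in Gramd1c+/+ mice. It was the only one of the 7 in which the diets overlapped within Gramd1c-/- mice, where 7.32 TPM on high cholesterol lay below 7.99 TPM on low cholesterol. On the log2 scale 9130409I23Rik differed by 1.08 ± 0.33 in Gramd1c-/- mice and 1.53 ± 0.31 in Gramd1c+/+ mice, and 2.48-fold on average (95% interval 1.79 to 3.42).

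1700080G11Rik is annotated as a long intergenic noncoding RNA of 2 exons and 436 bases on chromosome 4 (GRCm38 chr4:127531622-127532885, plus strand). It reached 28.9, 36.5, 25.8, 17.7 and 94.1 TPM in Gramd1c-/- mice and 25.6, 24.6, 29.4, 32.5 and 23.02 TPM in Gramd1c+/+ mice on high cholesterol. Its level on low cholesterol was 8.43, 8.53, 10.2 and 10.8 TPM in Gramd1c-/- mice and 8.58, 11.7, 3.92, 10.9 and 6.90 TPM in Gramd1c+/+ mice. The 94.1 TPM belonged to the library that stood apart on the first principal component, and the next mouse had 36.5 TPM. The averaged difference was 3.83-fold (95% interval 2.56 to 5.73), or 1.94 on the log2 scale, and 1.67 without the first pair of libraries that stood apart. As the transcript is short, 23 to 568 reads per mouse stood behind its TPM, and only 23 to 69 in the low cholesterol mice.

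The first 240 bases of that transcript, as annotated in GENCODE M21 on GRCm38, are shown because the gene has no described product other than its RNA. Capitals mark the first exon (30 bases, chr4:127531622-127531651), and the lower-case letters belong to the second (chr4:127532480-127532885).
1700080G11Rik: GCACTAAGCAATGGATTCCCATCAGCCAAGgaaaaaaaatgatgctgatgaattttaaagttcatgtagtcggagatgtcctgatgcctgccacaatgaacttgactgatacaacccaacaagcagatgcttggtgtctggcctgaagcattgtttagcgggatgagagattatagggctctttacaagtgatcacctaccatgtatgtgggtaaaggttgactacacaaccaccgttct

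Promoter windows were found for 6 of the 7 genes. A search of both strands for 5 motifs gave no motif that all 6 shared. The nuclear receptor hexamer AGGTCA, found in 16.3% of all windows, stood in that of Spsb4 alone. The E-box CACGTG stood in Rab20 and 1700080G11Rik, TATAAA in Inmt, CCAAT in 1700080G11Rik (37.4% of all windows) and GGGCGG in Tpm2, Rab20 and Spsb4, with no overlap between motifs. The window of 9130409I23Rik held none of the 5, and that of 1700080G11Rik belongs to a RefSeq start 56781 bases from the start in the count tables. These matches describe letters and not binding.

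The genotype comparison, which the choice of the genes did not use, called 0 of the 7 genes with the diets averaged (edgeR, 0.00666% of tested genes called, which was Gramd1c alone, with 448 of all genes at an unadjusted p below 0.05). DESeq2 also called 0 of the 7. One gene, Inmt, had an unadjusted p below 0.05. Averaged over diets, Inmt was 0.736 times as high in Gramd1c-/- as in Gramd1c+/+ mice (95% interval 0.584 to 0.928, unadjusted p = 0.0121, adjusted p = 0.999, edgeR). On low cholesterol 4 Gramd1c-/- mice averaged 474 TPM (SD 18.2% of the mean) and 5 Gramd1c+/+ mice 704 TPM (SD 28.4% of the mean), and on high cholesterol 5 Gramd1c-/- mice averaged 1153 TPM (SD 25.9% of the mean) and 5 Gramd1c+/+ mice 1370 TPM (SD 16.6% of the mean). For the other 6 genes the averaged genotype difference ran from -0.13 for 9130409I23Rik to 0.38 for 1700080G11Rik on the log2 scale. Without Gramd1c-/- high cholesterol replicate 5 it was 0.06 for 1700080G11Rik and -0.27 for Adam11, against -0.02 for Adam11 with all mice, and over the 6 genes it ran from -0.36 to 0.28 without the first pair of libraries that stood apart and from -0.42 to 0.35 without all 3. With all mice the interval for 1700080G11Rik, 0.880 to 1.92-fold, was wide, while that for Rab20, 0.823 to 1.10-fold, was narrow. On neither diet did the genotypes separate without overlap in any of the 7 genes. The share of all tested genes in which they did is not given here, so nothing is drawn from this count.

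**Figure D3:**
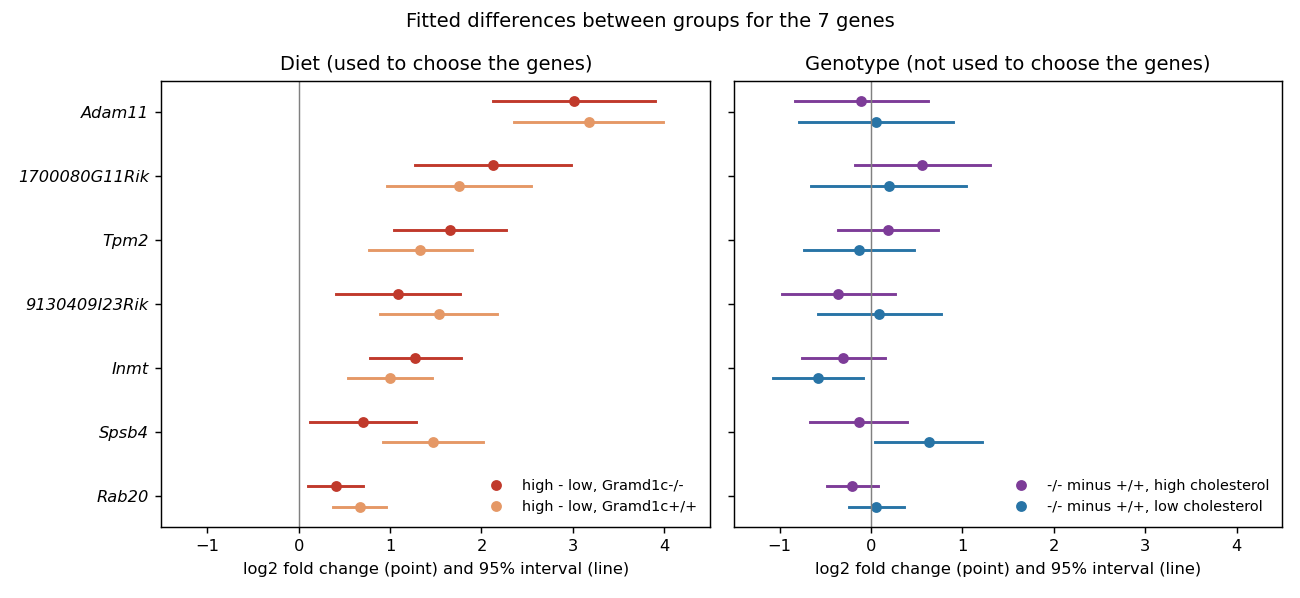
Fitted log2 fold changes (points) with 95% intervals (lines) of the 7 genes. The left panel gives high minus low cholesterol in Gramd1c-/- and Gramd1c+/+ mice, the contrast on which the genes were chosen, and the right panel Gramd1c-/- minus Gramd1c+/+ on each diet. Diet effects run from 0.41 to 3.17, and genotype differences from -0.58 for Inmt to 0.63 for Spsb4, both on low cholesterol.

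Whether the diet effect differed between genotypes was tested as an interaction, with the limit that the choice of genes does not say in which genotype the difference was read. The edgeR interaction test called 0 of the 7 genes and 0 of all tested genes (0.0%), with 0 of the 7 and 250 of all genes at an unadjusted p below 0.05. DESeq2 also called 0 of the 7. Spsb4 came closest, with a diet effect 0.588 times as large in Gramd1c-/- as in Gramd1c+/+ mice (95% interval 0.341 to 1.02, unadjusted p = 0.0560, adjusted p = 0.9999, edgeR). The 3 genes called in Gramd1c+/+ but not in Gramd1c-/- mice, Spsb4, Rab20 and 9130409I23Rik, were thus not shown to differ between genotypes. On low cholesterol Spsb4 averaged 1.31 ± 0.28 TPM in 4 Gramd1c-/- mice and 0.851 ± 0.229 TPM in 5 Gramd1c+/+ mice (SD). This difference of 0.63 on the log2 scale had an adjusted p of 0.9995 in edgeR.

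Whether the genes moved together from mouse to mouse was asked after the group means, which the choice had used, were taken out. Over the 19 mice, 15 of 21 pairs had a positive Pearson correlation of log2(CPM + 1), with a median of 0.243. The share over pairs of all tested genes is not given here, so nothing is drawn from this count. By Pearson correlation 2 pairs had a permutation p below 0.05, and 0 passed after Benjamini-Hochberg adjustment. Inmt and 9130409I23Rik gave r = 0.697 (permutation p = 0.00482, adjusted p = 0.101) and rho = 0.575 (permutation p = 0.0260, adjusted p = 0.191), and r = 0.433 without the pair of mice farthest from the median of Inmt. Inmt and Rab20 gave r = 0.523 (permutation p = 0.0325, adjusted p = 0.341) and rho = 0.525 (permutation p = 0.0273, adjusted p = 0.191), and r = 0.608 without those mice. Spsb4 and 1700080G11Rik gave r = 0.445 (permutation p = 0.156, adjusted p = 0.655) and rho = 0.644 (permutation p = 0.00512, adjusted p = 0.108), and r = 0.471 without 2 mice. Without the first pair of libraries that stood apart, Spsb4 and 1700080G11Rik reached r = 0.731 (permutation p adjusted over the 21 pairs, 0.0378). Their rank correlation there, rho = 0.686, did not pass (adjusted permutation p = 0.112). In the same mice Adam11 and 1700080G11Rik gave a negative r = -0.648 (permutation p = 0.0156, adjusted p = 0.141), against r = 0.256 over all 19. Inmt and 9130409I23Rik gave r = 0.721 there (permutation p = 0.0202, adjusted p = 0.141).

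The genes whose levels followed each of the 7 most closely are given as a description, by Spearman correlation of log2(CPM + 1) over all 19 mice, where the diet groups shape every value. Adam11 was followed by Abcg5 (rho = 0.879), a sterol exporter and LXR target, by Cyp4f15 (0.868), a cytochrome P450 of fatty acid oxidation, and by Mlxipl (0.832), the sugar-sensing factor ChREBP. Tpm2 was followed by Krt23 (0.925), a keratin, Acaa1b (0.877), a peroxisomal thiolase, and Wfdc2 (0.868). For Inmt the closest were Nkx2-6 (0.909), Gstt2 (0.907), a glutathione transferase, and Ccdc107 (0.884). For Rab20 they included Nkx2-6 (0.882) and Cyp4f15 (0.867). Spsb4 had 1700080G11Rik as its closest gene (0.858), before 2200002D01Rik (0.842) and Tomm6os (0.837), and for 9130409I23Rik Inmt came second (0.865) after Gm35986 (0.868). 1700080G11Rik was followed by Haus8 (0.937) and Srsf11 (0.907), a splicing factor.

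With the group means removed, other genes came first, over the same 19 mice. Each value is the highest over all tested genes, was not tested and is given as a description only. Gstt2 came first for Inmt (rho = 0.914). Adam11 was followed by Mcoln1 (0.928), the lysosomal calcium channel, and Tpm2 by Rdh16 (0.861), a retinol dehydrogenase. Rab20 had Scarna2 (0.861), a small RNA of Cajal bodies, 1700080G11Rik had Gm15610 (0.886), Spsb4 had Ptgir (0.791), the prostacyclin receptor, and 9130409I23Rik had Taf5 (0.833).

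The genes beside the 7 in the genome were read in the same fit. Of 42 tested neighbours, 3 on each side of each gene, 0 were called in either direction by edgeR and 3 by DESeq2 (Arhgef39, Ccdc107 and Gars). DESeq2 called 598 of all tested genes. An unadjusted p below 0.05 in edgeR was found in 8, against 2748 of all 15016 tested genes. Of the 42, 19 had positive estimates, against 53% of all tested genes, and the log2 fold changes lay between -0.58 and 1.11. The highest stood on one side of Tpm2, where Arhgef39 (15016 bases away, at most 21 reads in a mouse) gave 1.11 (adjusted p = 0.0981) and Ccdc107 (18.8 kb away) gave 0.61 (adjusted p = 0.0628), while Tln1 (7.75 kb away on the other side), the gene of the adhesion protein talin, gave -0.06. Ephx1, beside 9130409I23Rik, gave 0.24, and Col4a2, a collagen gene 4.23 kb from Rab20, gave -0.09. For 1700080G11Rik the nearest tested genes lay 218 kb (Gja4, -0.09) and 1050 kb (Zscan20, 0.07) away. Gm16010 overlaps Spsb4 and Gm17967 overlaps 9130409I23Rik on the other strand, and they held at most 3 and 2 reads in a mouse.

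**Figure D4:**
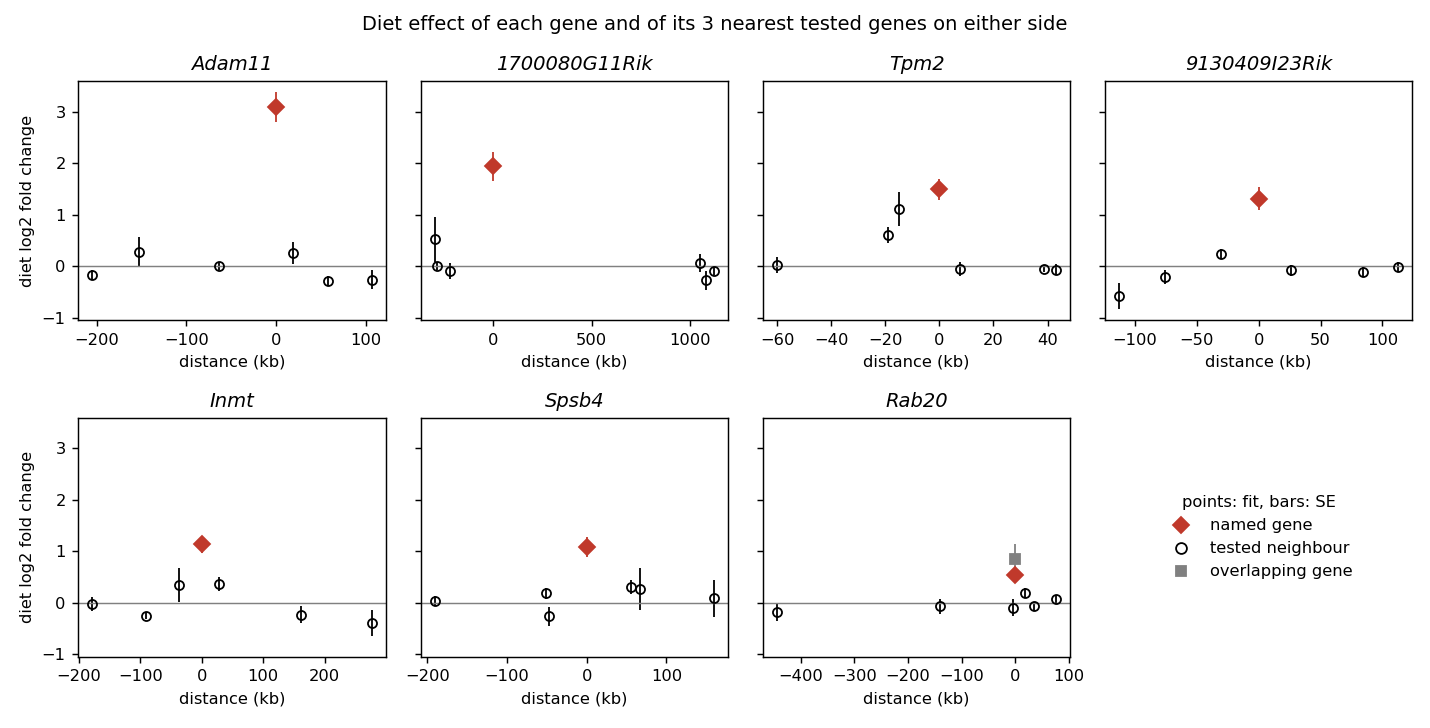
Diet effect (log2 fold change, high minus low cholesterol, averaged over genotypes, with SE bars) of each gene at 0 kb and of its 3 nearest tested genes on either side by distance. Red diamonds are the 7 genes, open circles their neighbours, and the grey square is the overlapping E230013L22Rik at 0.85. Adam11 stands at 3.09 with neighbours between -0.28 and 0.28.

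Of 20 cholesterol synthesis genes 19 were called lower on high cholesterol and 0 higher, with a median log2 fold change of -2.06, and Cyp51 had 14.0 TPM on high and 143.6 TPM on low cholesterol (log2 fold change -3.35). All 9 other SREBP2 targets tested were called lower. Of 13 LXR targets 6 had an unadjusted p below 0.05, and DESeq2 called 3, the third being Lpl (0.73), a lipoprotein lipase. By edgeR 1 was called higher, Abcg5 (0.67, with 140.5 TPM on high and 87.7 TPM on low cholesterol), and 1 lower, Pltp (-1.31), a phospholipid transfer protein. Of 10 bile acid synthesis genes 0 were called by edgeR, 1 by DESeq2 (Cyp8b1) and 1 had an unadjusted p below 0.05. The 7 genes were chosen on this same contrast, so their size beside the list genes is only a description. Of the 7 genes, 6 had a larger log2 fold change than Abcg5, all but Rab20, which had 0.54.

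**Figure D5:**
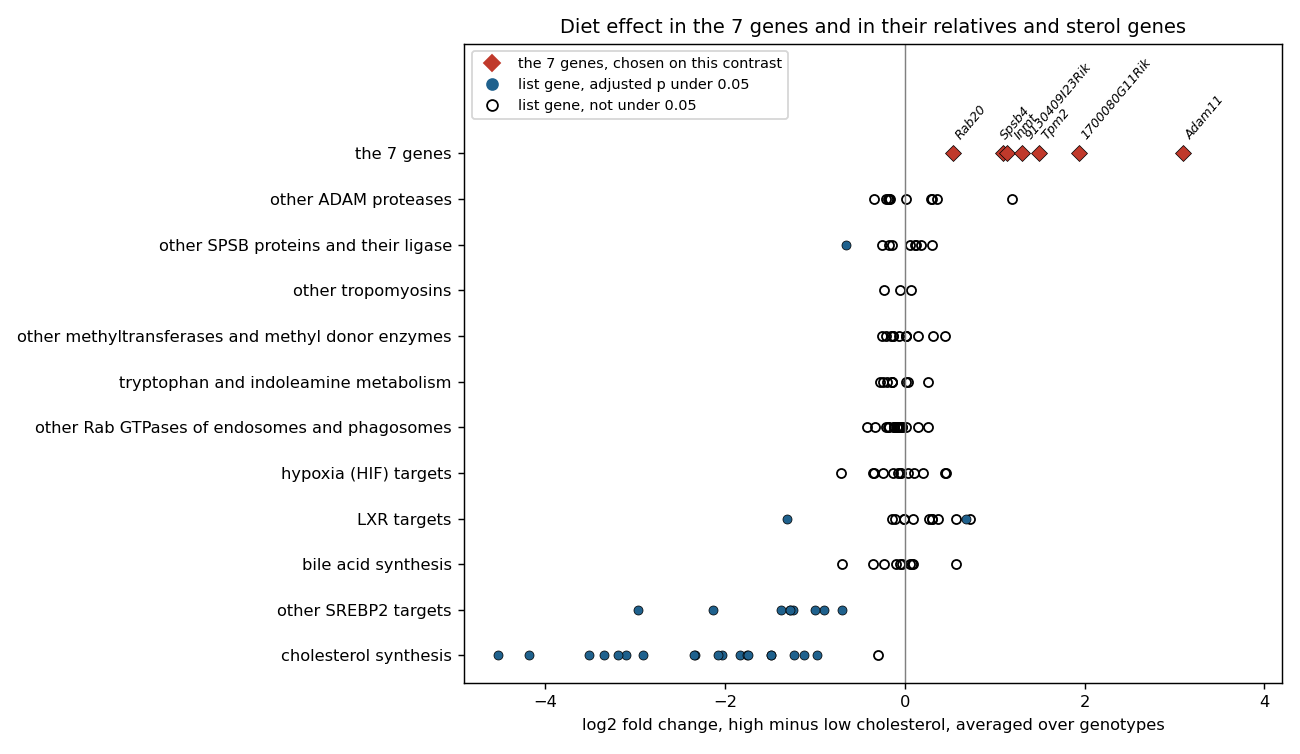
Log2 fold change, high minus low cholesterol averaged over genotypes, of the 7 genes (red diamonds, chosen on this contrast) and of tested genes of 11 lists, where each circle is a gene and filled circles were called by edgeR. Relatives of the 7 and genes of their pathways lie between -0.71 and 1.20, cholesterol synthesis genes lie between -4.53 and -0.30, and Adam11 stands farthest to the right at 3.09.

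The mice fall into 2 runs by the animal numbers in the records, and what the runs stand for is not given in the sources used here. In the first run, with 5 mice on high and 6 on low cholesterol, the ratio of mean TPM between the diets was 1.34 for Rab20 to 7.96 for Adam11, and in the second, with 5 and 3 mice, it was 1.52 for Rab20 to 9.61 for Adam11. The diets did not overlap for 6 of the 7 genes within the first run, where all high cholesterol mice lay above all low cholesterol mice in 1.33% of tested genes, and for 5 within the second, where they did so in 1.48%. Both runs are parts of the same mice on which the genes were chosen, so these counts are a description and not a further test. Tpm2 averaged 15.8 ± 6.54 TPM on high and 4.05 ± 0.84 TPM on low cholesterol in the first run and 8.92 ± 2.32 and 4.88 ± 0.69 TPM in the second (SD). 9130409I23Rik likewise differed 3.39-fold in the first run and 1.62-fold in the second. The first run held the Gramd1c-/- high cholesterol mice with 26.3 TPM of Tpm2 (replicate 3) and 25.9 TPM of 9130409I23Rik (replicate 2). In the second run was the Gramd1c+/+ low cholesterol mouse with 9.48 TPM of 9130409I23Rik. The runs also held the genotypes in unequal numbers, and whether the diet effect differed between runs was not tested.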

How the data were processed

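RNA-seq was measured in the livers of 19 mice, and the authors deposited 1 table of raw counts per gene and mouse, with gene lengths. Per the submitters' processing notes, reads were aligned with STAR 2.5.2b and the build was GRCm38. For the counter, its use of strand and its gene annotation, no detail is given in the sources used here. Gene symbols came from GENCODE M21 on GRCm38, which gave one to 48970 of 49315 IDs. TPM and CPM were computed from the counts.

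Counts were fitted in edgeR 4.0.16 (R 4.3.3) with TMM factors, genes kept by filterByExpr (minimum count 10), 1 coefficient for each of 4 groups and the quasi-likelihood F test, with Benjamini-Hochberg adjustment at 0.05 over 15016 genes. Totals per library ran from 27149972 to 34669648 with a median of 30159347, and the common biological coefficient of variation was 0.255. The script was tested on simulated data. Alternatives were DESeq2 1.42.0, limma 3.58.1 on log2(TPM + 1), other size factors and filters, a replicate block, a term for the run of animal numbers and the omission of libraries. The alternative without 3 libraries was chosen after seeing the data.

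The genes and all lists were chosen with earlier results of these data known. Named beside the 7 genes were the 3 genes most like each in level, with and without group means, the nearest tested and the overlapping genes, up to 4 genes of each list with the smallest p, and Gramd1c and Sqle. Further list genes were named as close relatives after their values were seen. Correlations used 100000 permutations. Promoter windows came from RefSeq (GRCm38.p6). Some named genes that the rule selects are not reported here.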

Additional observations from a re-analysis of the deposited data

Results flagged for a closer look

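In 4 of 28 groups of values (7 genes in 4 groups of mice) 1 mouse lay far from the other mice of its group by Dixon's criterion, which chance meets in about 1 of 20 groups. Spsb4 had 3.40 TPM in Gramd1c-/- high cholesterol replicate 2, with the next mouse at 1.98 TPM. The same mouse had 25.9 TPM of 9130409I23Rik, with the next at 12.5 TPM. 1700080G11Rik had 94.1 TPM in Gramd1c-/- high cholesterol replicate 5, which also stood apart on the first principal component, with the next mouse at 36.5 TPM. Inmt had 1049 TPM in Gramd1c+/+ low cholesterol replicate 5, with the next mouse at 678 TPM.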

How the results depend on the processing

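The count of the 7 genes called higher with genotypes averaged was 7 under all 28 alternatives, and the counts called by genotype or by interaction were 0 under all of them. The count in Gramd1c-/- mice was 4, against 1 with a replicate block and 1 to 4 when each mouse was left out, while of all genes 5 were called higher, against 2 and 1 to 11. The count in Gramd1c+/+ mice was 7, against 3 with a replicate block, 4 without the 2 libraries that stood apart and 2 to 7 when each mouse was left out in turn, while of all genes 15 were called higher, against 6, 25 and 2 to 20. Deviations of same-numbered mice from their group means correlated at -0.09 on average over 27 pairs (-0.41 to 0.38). Those of differently numbered mice correlated at 0.02 over 108 pairs (-0.49 to 0.47). Such averages cannot show whether the numbers pair the mice, for which no detail is given in the sources used here. No log2 fold change between diets changed sign under any alternative. Since the genes were chosen on the diets in these same mice, nothing is drawn from these signs or from the counts called between diets. The number of within-group Pearson correlations that passed adjustment was 0, against 1 without the 2 libraries that stood apart (Spsb4 with 1700080G11Rik) and 1 on log2(TPM + 1) (Inmt with 9130409I23Rik).

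Over all genes, 67 were called higher with genotypes averaged, against 303 with DESeq2, 35 with a replicate block and 29 to 140 when each mouse was left out, and 195 were called in all, against 598 with DESeq2. The cause of these shifts was not tested. Depth limits 1700080G11Rik and Spsb4, which had 23 to 69 and 30 to 98 reads per mouse on low cholesterol.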
